A study of Homo sapiens with 12 samples.

Results

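FKBP5, SGK1, TSC22D3, PER1, KLF9, ZBTB16, DUSP1 and ERRFI1 are 8 genes that more than 1 steroid receptor induces, and their transcripts are described here in prostate cancer cells carrying mutant or wild-type SPOP. Every probe that the platform annotation assigns to these symbols was taken, which gave 17 of the 47323 probes on the array, and 7 of the 8 genes were among the 12227 genes tested. The cells were LNCaP-Abl, an established prostate cancer line obtained by keeping LNCaP cells in medium depleted of androgen. All groups grew in RPMI medium with charcoal-stripped serum, which is low in steroids, and all were given doxycycline to induce the construct. The constructs were SPOP F102C (2 arrays), SPOP F133V (2 arrays), SPOP F133L (2 arrays), wild-type SPOP (3 arrays) and a control vector (3 arrays). SPOP is the substrate-binding adaptor of a cullin ubiquitin ligase, and the 3 mutants change phenylalanines of its substrate-binding domain. The titles number replicates within each group. The sources used here do not say whether these came from separate lines or cultures, and p-values measure only the spread between these arrays, which may be technical.

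Steroid receptors such as the glucocorticoid receptor are hormone-activated transcription factors that leave a chaperone complex on binding steroid and attach to closely similar DNA elements. Their shared targets feed back on signalling. FKBP5 encodes a co-chaperone that lowers the hormone affinity of the glucocorticoid receptor, and SGK1 encodes a kinase that acts on ion transport and survival. TSC22D3 (also called GILZ), PER1, KLF9 and ZBTB16 (also called PLZF) encode regulators of transcription, PER1 being a repressor of the circadian clock. DUSP1 encodes a phosphatase that switches off MAP kinases, and ERRFI1 (also called MIG6) an inhibitor of receptors of the EGFR family.

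The promoters of SGK1 and FKBP5, the members with the largest rises in the mutants against wild-type SPOP, are shown beside that of DUSP1, a member that did not pass the tests. RefSeq promoter windows of assembly GRCh38.p14, each from 250 bases before to 50 after a transcription start, matched 7 of the 8 genes with 13 windows. ZBTB16 was not matched. Each sequence below is the 250 bases before the most downstream start in the table, 5′ to 3′ on the gene's minus strand. Capitals mark a GC box (GGGCGG), an E-box (CACGTG) or a cAMP response element (TGACGTCA), on either strand. The files do not say which start LNCaP-Abl cells use.
SGK1 chr6:134174867-134175116: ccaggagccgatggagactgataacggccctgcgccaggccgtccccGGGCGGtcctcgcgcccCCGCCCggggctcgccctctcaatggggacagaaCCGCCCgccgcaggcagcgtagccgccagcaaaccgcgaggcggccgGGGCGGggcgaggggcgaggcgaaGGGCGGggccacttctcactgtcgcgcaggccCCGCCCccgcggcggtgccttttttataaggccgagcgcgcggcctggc
FKBP5 chr6:35688916-35689165: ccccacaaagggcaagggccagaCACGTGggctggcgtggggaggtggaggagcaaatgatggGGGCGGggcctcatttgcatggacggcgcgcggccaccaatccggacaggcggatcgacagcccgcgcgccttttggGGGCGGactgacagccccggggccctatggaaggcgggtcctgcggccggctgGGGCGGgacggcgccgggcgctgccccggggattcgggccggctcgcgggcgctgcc
DUSP1 chr5:172771196-172771445: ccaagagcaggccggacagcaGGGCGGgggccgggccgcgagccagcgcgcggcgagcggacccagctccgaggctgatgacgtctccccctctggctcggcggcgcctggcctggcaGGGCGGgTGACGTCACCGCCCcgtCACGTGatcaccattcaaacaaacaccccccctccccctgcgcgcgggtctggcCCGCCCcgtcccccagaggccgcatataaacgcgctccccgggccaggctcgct

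The cAMP response element was found in 1 of the 13 windows, that of DUSP1, against 1.85% of all 35116 windows in the table. The E-box was found in windows of DUSP1, FKBP5 and PER1 (3 of 13, against 7.26% of all windows), and the GC box in 8 of 13 against 45% of all. In the DUSP1 window a GC box directly follows the cAMP response element without overlapping it. The palindromic steroid receptor element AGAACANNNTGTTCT, searched on both strands, was in none of the 13 windows and in 1 of the 35116. A single repeat of it, AGAACA, was in 2 windows, at position 1 of another FKBP5 start and position 6 of another SGK1 start, against 14.8% of all windows. These matches describe the letters of the windows and say nothing about binding.

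Mutant arrays had 17485 to 19543 detected probes, wild-type SPOP arrays 18906 to 19175 and control arrays 19272 to 19677, so fewer probes were detected on some mutant arrays. Within groups, pairs of arrays had a Pearson r of 0.990 to 0.994, and between groups 0.983 to 0.992, so the ranges overlapped. The SPOP probe read 9.90 to 10.27 on mutant arrays, 10.01 to 10.21 on wild-type arrays and 10.15 to 10.23 on control arrays. It did not pass in any of these comparisons, and the sources used here do not place it relative to the constructs. Of the luminal prostate markers 7 were tested, including KRT8, KRT18, FOLH1 and HOXB13. Their summed linear level was 6619 to 7371 in the mutants, 6721 to 7213 with wild-type SPOP and 5189 to 5587 with control vector. FOLH1 and the protease TMPRSS2, with the highest levels, made up most of this sum, so it does not show how single markers moved. In the mutants against wild-type SPOP the secreted protease KLK3 rose by 1.44 ± 0.10 log2 (SE; adjusted p = 1.4e-05) and KRT18 by 0.53 ± 0.13 (0.0242), while the membrane antigen FOLH1 fell by 0.48 ± 0.10 (0.0112). The basal keratins KRT5 and KRT14 and the surface marker CD44 were detected on 0 of 12 arrays, as were the neuroendocrine markers CHGA and SYP. Of the 5 basal list genes VIM was the 1 tested; it was at 221 to 278 in the mutants, 201 to 243 with wild-type SPOP and 501 to 605 with control vector. ENO2, the tested neuroendocrine gene of 4 listed, was at 493 to 550 in the mutants, 390 to 442 with wild-type SPOP and 233 to 278 with control vector. None of 5 fibroblast markers was tested, and the part of these marker shifts in the results was not tested.

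Of the 17 probes, 12 were detected on all 12 arrays and 5 on none. Detection means a detection p-value under 0.05. FKBP5, KLF9, DUSP1 and ERRFI1 each had 1 probe, and it was detected throughout. SGK1 had 3 detected probes of 4, TSC22D3 had 2 of 5 and ZBTB16 had 3 of 3. The only PER1 probe, ILMN_1653125, was detected on no array, with a lowest detection p of 0.24, and PER1 was therefore not tested. Its normalized log2 signal was 4.45 to 4.73 on mutant arrays, 4.37 to 4.57 on wild-type arrays and 4.53 to 4.65 on control arrays, all in the range of undetected probes. The probe with the highest mean stood for each gene below, and levels are normalized log2 intensities that cannot be compared between genes.

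FKBP5 (probe ILMN_1778444) had log2 levels of 10.59 and 10.72 in F102C, 10.75 and 10.996 in F133V, and 11.09 and 10.9996 in F133L. It had 9.94, 9.87 and 9.89 with wild-type SPOP and 10.52, 10.48 and 10.50 with control vector. All 6 mutant arrays were above the 3 control arrays, and these were above the 3 wild-type arrays. The nearest F133V and F133L arrays, at 10.996 and 10.9996, were almost equal. The mean was 10.86 ± 0.20 in the mutants (SD, n = 6), 9.90 ± 0.03 with wild-type SPOP and 10.50 ± 0.02 with control vector (SD, n = 3 each). Wild-type SPOP against control vector differed by -0.60 ± 0.09 log2 (SE; limma adjusted p = 0.00258), a 1.51-fold fall. The mutants exceeded wild-type SPOP by 0.96 ± 0.08 (adjusted p = 3.2e-05), a 1.94-fold rise. The mutants exceeded control vector by 0.36 ± 0.08 (adjusted p = 0.0127), but with arrays scaled to equal medians this difference was -0.11 (adjusted p = 0.528), and without control array 2 the call was lost (adjusted p = 0.0502).

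SGK1 (probe ILMN_1702487) had log2 levels of 8.19 and 8.02 in F102C, 8.76 and 8.71 in F133V, and 8.96 and 9.05 in F133L. It had 6.70, 6.89 and 6.68 with wild-type SPOP and 6.85, 7.05 and 7.01 with control vector. All 6 mutant arrays were above all wild-type and control arrays, F102C being the lowest of the mutants, and wild-type and control arrays overlapped. The mean was 8.61 ± 0.42 in the mutants (SD, n = 6), 6.76 ± 0.12 with wild-type SPOP and 6.97 ± 0.10 with control vector (SD, n = 3 each). The mutants exceeded wild-type SPOP by 1.86 ± 0.08 log2 (SE; adjusted p = 4.8e-07), which was 3.62-fold and the rise ranked 2 of the 12227 genes. They exceeded control vector by 1.64 ± 0.08 (adjusted p = 2.8e-07), which was 3.12-fold. The sizes depended on the processing: with the authors' deposited values they were 0.96 against wild-type SPOP and 0.88 against control vector, and with no background correction 1.24 against wild-type SPOP, all still called. Wild-type SPOP against control vector differed by -0.21 ± 0.10 (adjusted p = 0.237), with a 95% interval of -0.43 to 0.00.

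**Figure D1:**
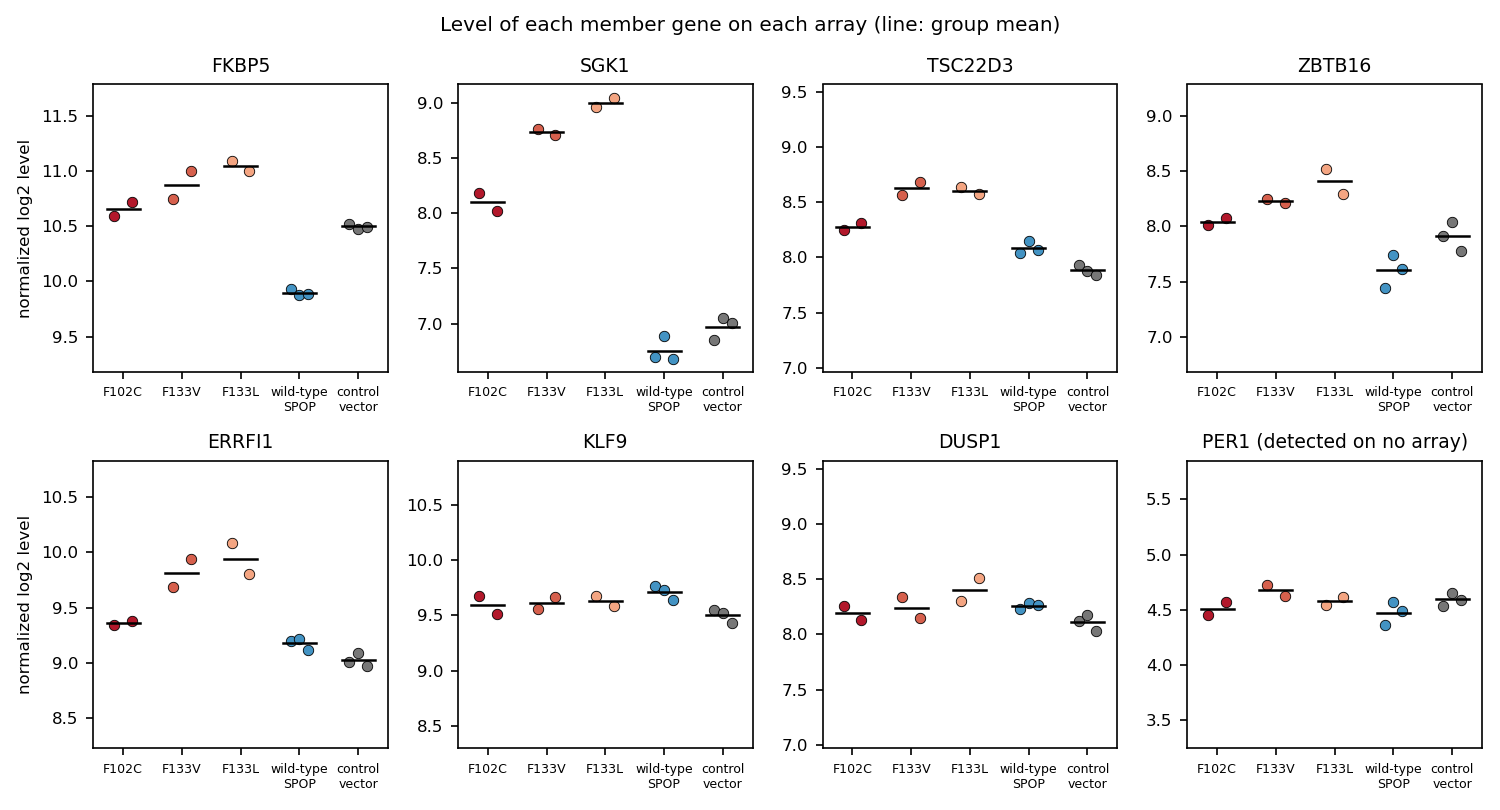
Normalized log2 level of each of the 8 genes on each array (vertical axis, panels share a minimum height in log2 units) by construct, 1 point per array and a line at the group mean. SGK1 is at 8.02 to 9.05 on the 6 mutant arrays, against 6.68 to 6.89 with wild-type SPOP, FKBP5 is lowest with wild-type SPOP, and KLF9 and DUSP1 vary little. PER1 was detected on no array.

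Among the transcription regulators, TSC22D3 (ILMN_1748124) had log2 levels of 8.24 and 8.31 in F102C, 8.56 and 8.68 in F133V, and 8.64 and 8.57 in F133L. It had 8.04, 8.14 and 8.07 with wild-type SPOP and 7.93, 7.88 and 7.84 with control vector. The control, wild-type, F102C and F133V and F133L arrays formed successive ranges with no overlap, while the last 2 groups overlapped. The mutants exceeded wild-type SPOP by 0.42 ± 0.07 (SE; adjusted p = 0.00405) and control vector by 0.62 ± 0.07 (adjusted p = 0.000246), and both calls were lost with arrays scaled to equal medians (0.05, adjusted p = 0.799, and 0.13, adjusted p = 0.451). Wild-type SPOP and control vector differed by 0.20 ± 0.08 (adjusted p = 0.198), with all 3 wild-type arrays above all 3 control arrays.

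ZBTB16 (ILMN_2305407) had log2 levels of 8.01 and 8.07 in F102C, 8.25 and 8.21 in F133V, and 8.52 and 8.29 in F133L. It had 7.45, 7.74 and 7.61 with wild-type SPOP and 7.91, 8.04 and 7.78 with control vector. The order of the groups was that of FKBP5, with wild-type SPOP lowest, but F102C and control arrays overlapped. The mutants exceeded wild-type SPOP by 0.63 ± 0.09 (SE; adjusted p = 0.00192), a call lost with arrays scaled to equal medians (0.26, adjusted p = 0.148). Wild-type SPOP against control vector differed by -0.31 ± 0.11 (adjusted p = 0.124). The mutants against control vector differed by 0.32 ± 0.09 (adjusted p = 0.0493), which was -0.16 with arrays scaled to equal medians and lost its call in 10 of the 12 fits that left out 1 array (adjusted p up to 0.183).

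KLF9 (ILMN_1778523), a Krüppel-like repressor, was at 9.51 to 9.68 on the mutant arrays, 9.64 to 9.76 with wild-type SPOP and 9.43 to 9.55 with control vector. All 3 wild-type arrays were above the control arrays, while the mutant arrays overlapped both. The mutants differed from wild-type SPOP by -0.10 ± 0.08 (SE; adjusted p = 0.444; 95% interval -0.27 to 0.07), and wild-type SPOP from control vector by 0.21 ± 0.09 (adjusted p = 0.199). With the authors' deposited values wild-type SPOP against control vector passed (0.17, adjusted p = 0.0428).

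Of the signalling inhibitors, ERRFI1 (ILMN_1665510) had log2 levels of 9.34 and 9.37 in F102C, 9.68 and 9.94 in F133V, and 10.08 and 9.80 in F133L. It had 9.20, 9.22 and 9.12 with wild-type SPOP and 9.01, 9.09 and 8.97 with control vector. F133V and F133L arrays overlapped and lay above F102C, which lay above wild-type SPOP and then control vector without overlap. The mutants exceeded wild-type SPOP by 0.53 ± 0.09 (SE; adjusted p = 0.00371) and control vector by 0.68 ± 0.09 (adjusted p = 0.000568). Both calls were lost with arrays scaled to equal medians (0.17, adjusted p = 0.390, and 0.19, adjusted p = 0.283), and the second also with the detected-probe covariate (adjusted p = 0.0965). DUSP1 (ILMN_1781285) was at 8.13 to 8.51 on mutant arrays, 8.23 to 8.28 with wild-type SPOP and 8.03 to 8.17 with control vector. The mutants differed from wild-type SPOP by 0.02 ± 0.08 (adjusted p = 0.903; 95% interval -0.16 to 0.20) and from control vector by 0.17 ± 0.08 (adjusted p = 0.216).

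The mutants were set against wild-type SPOP, which asks what the substitutions alter in SPOP's effect. Here 5 of the 7 tested members rose and 0 fell. Over all genes 5.57% rose and 6.18% fell at the same adjusted p under 0.05. The members' median difference was 0.53 log2, against -0.01 over all genes. The members and the lists below were chosen with earlier results of these data known. Their shares and medians beside those of all genes are therefore a description and not a test. The same 5 members were higher on every mutant array than on any wild-type array, as were 8.01% of all genes. With detected probes per array added as a covariate, 5 members were also called, while calls over all genes dropped well below the 1437 of the main fit. With arrays scaled to equal medians, which moves the median over all genes to -0.26, FKBP5 (0.65) and SGK1 (1.496) rose, KLF9 fell (-0.45), and TSC22D3, ZBTB16 and ERRFI1 were at 0.05, 0.26 and 0.17 without passing.

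Wild-type SPOP against control vector gave 1 member that fell, FKBP5, and 0 that rose. Over all genes 3.08% rose and 3.07% fell. The members' median was 0.15, against 0.00 over all genes. FKBP5 and ZBTB16 were lower on every wild-type array than on any control array, as were 14% of all genes, while TSC22D3, KLF9, DUSP1 and ERRFI1 were higher on every array, as were 13.9%. Both shares of non-overlapping genes are large in this comparison of 3 arrays with 3.

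Against control vector the mutants had 5 members that rose, SGK1, ERRFI1, TSC22D3, FKBP5 and ZBTB16, and 0 that fell, with 5.59% of all genes rising and 6.62% falling. With arrays scaled to equal medians FKBP5 and ZBTB16 turned negative, and TSC22D3 and ERRFI1 lost their calls, as given above. KLF9 was then called lower (-0.39, adjusted p = 0.0191), but that scaling also moved the median over all genes down to near that value. FKBP5 and ZBTB16 stayed above that median. SGK1, TSC22D3, ERRFI1 and FKBP5 were higher on every mutant array than on any control array, as were 7.39% of all genes. With the detected-probe covariate only SGK1 passed, but calls over all genes also dropped to a small part of the 1494 of the main fit. The comparisons share arrays: each of the wild-type and control groups enters 2 of them, so their values are not independent of each other.

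**Figure D2:**
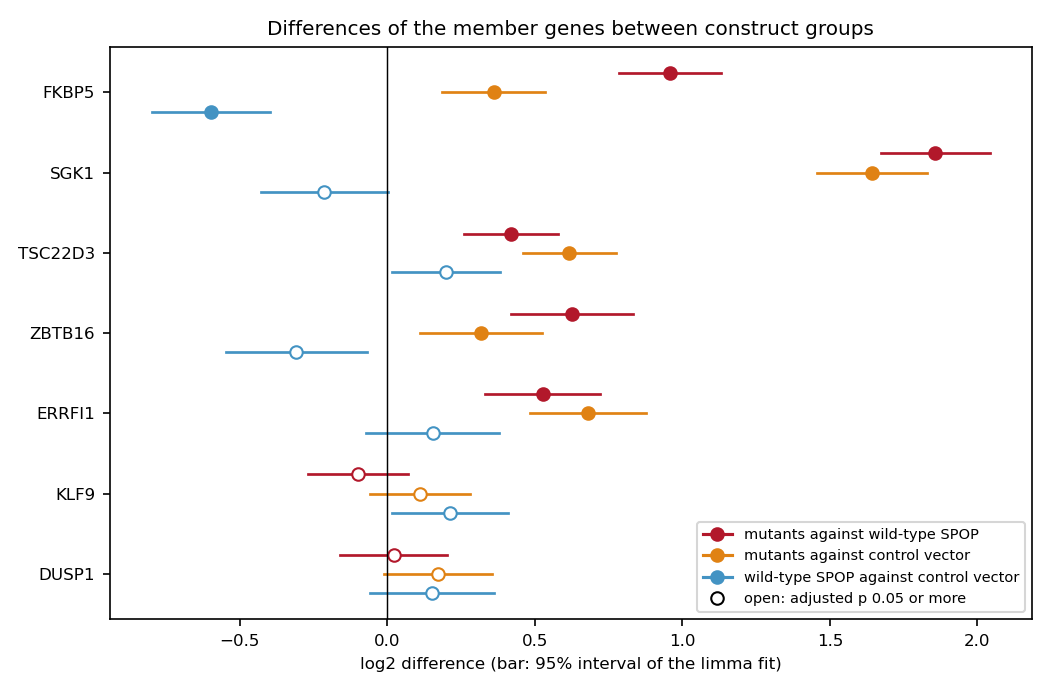
Log2 difference of the 7 tested genes (horizontal axis, with the 95% interval of the limma fit) in the 3 comparisons, filled points marking an adjusted p under 0.05. FKBP5 is at 0.96 in mutants against wild-type SPOP and at -0.60 in wild-type SPOP against control vector, and SGK1 is at 1.86 and -0.21 in the same comparisons. The FKBP5 and ZBTB16 points for mutants against control vector, 0.36 and 0.32, turn negative when arrays are scaled to equal medians. That scaling also lowers the median over all genes.

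Each mutant was then set against wild-type SPOP on 2 arrays against 3. In F102C 2 of the 7 members rose, SGK1 by 1.35 ± 0.11 and FKBP5 by 0.76 ± 0.10, where 1.68% of all genes rose. In F133V 5 rose, where 3.61% of all genes did, and in F133L 5 rose, where 3.23% did. SGK1 was 2.55-fold higher in F102C, 3.94-fold in F133V and 4.74-fold in F133L. On the log2 scale these were 1.35, 1.98 and 2.25, and with the authors' deposited values 0.63, 1.03 and 1.22, all still called. With no background correction SGK1 was at 1.33 in F133V and 1.55 in F133L. FKBP5 was 1.69-fold higher in F102C, 1.96-fold in F133V and 2.21-fold in F133L. With arrays scaled to equal medians the FKBP5 rise lost its call in F102C (0.61, adjusted p = 0.0603) and in F133V (0.41, adjusted p = 0.0649). With the detected-probe covariate SGK1 was the 1 member called in F133V, but calls over all genes also dropped far below the 997 of the main fit. The F133V arrays had the fewest detected probes (17485 and 17864), so the covariate and that construct are hard to separate. For SGK1 and FKBP5 the mean was highest in F133L and, among the mutants, lowest in F102C. FKBP5 differed by 0.17 ± 0.11 (SE) between F133L and F133V and did not pass (limma adjusted p = 0.631).

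The smaller rises passed in F133V and F133L and not in F102C, and all of them lost their calls with arrays scaled to equal medians. That scaling took the median over all probes, detected or not. Scaling to equal medians of only the probes detected on every array kept these calls, as did cyclic loess normalization. ERRFI1 differed from wild-type SPOP by 0.18 ± 0.12 in F102C (SE; adjusted p = 0.454), 0.64 ± 0.12 in F133V (0.00858) and 0.76 ± 0.12 in F133L (0.00341). TSC22D3 differed by 0.19 ± 0.09 in F102C (adjusted p = 0.294), 0.54 ± 0.09 in F133V (0.00665) and 0.52 ± 0.09 in F133L (0.00753). ZBTB16 differed by 0.44 ± 0.12 in F102C (adjusted p = 0.0749), 0.63 ± 0.12 in F133V (0.0113) and 0.81 ± 0.12 in F133L (0.00344). With equal array medians ERRFI1 was at 0.0065 in F133V and 0.499 in F133L, ZBTB16 at 0.0061 and 0.53, and TSC22D3 at -0.08 and 0.24 (adjusted p of 0.0540 or more). That scaling lowered the F133V difference of every tested member, and it moved the median over all genes down in the pooled mutants. KLF9 and DUSP1, at -0.10 and -0.02 in F133V in the main fit, were then called lower there (-0.73, adjusted p = 0.00121, and -0.64, adjusted p = 0.00318). The ZBTB16 difference in F102C passed under 6 of 15 processing alternatives, among them no background correction (adjusted p = 0.0192). Without the first F133V array the ZBTB16 call in F133V was lost (adjusted p = 0.0752), without the second that of ERRFI1 (0.0548), and without the first F133L array that of TSC22D3 in F133L (0.0539).

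Whether the mutants differ from each other was tested directly. The mean of F133V and F133L exceeded F102C by 0.76 ± 0.10 for SGK1 (SE; adjusted p = 0.0598; 95% interval 0.54 to 0.99) and by 0.52 ± 0.11 for ERRFI1 (adjusted p = 0.114; 0.28 to 0.76). It exceeded F102C by 0.34 ± 0.09 for TSC22D3 (adjusted p = 0.194), 0.31 ± 0.10 for FKBP5 (0.320) and 0.28 ± 0.12 for ZBTB16 (0.462). None passed, and 0% of all genes did with limma, although 1204 of them had an unadjusted p under 0.05. These 5 members were higher on all 4 F133V and F133L arrays than on both F102C arrays, as were 7.04% of all genes. SGK1 passed in 6 and ERRFI1 in 4 of 15 processing alternatives, SGK1 with the authors' deposited values, for example, at 0.50 (adjusted p = 0.000901).

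F133L and F133V did not differ past the threshold for any member, with SGK1 at 0.27 ± 0.12 (SE; adjusted p = 0.447; 95% interval 0.00 to 0.53) and ZBTB16 at 0.17 ± 0.13 (adjusted p = 0.688). Over all genes 0.00818% passed. In limma's F test among the 3 mutants SGK1 had an adjusted p of 0.0505 and ERRFI1 of 0.149, no member passed, and 0.0245% of all genes did.

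**Figure D3:**
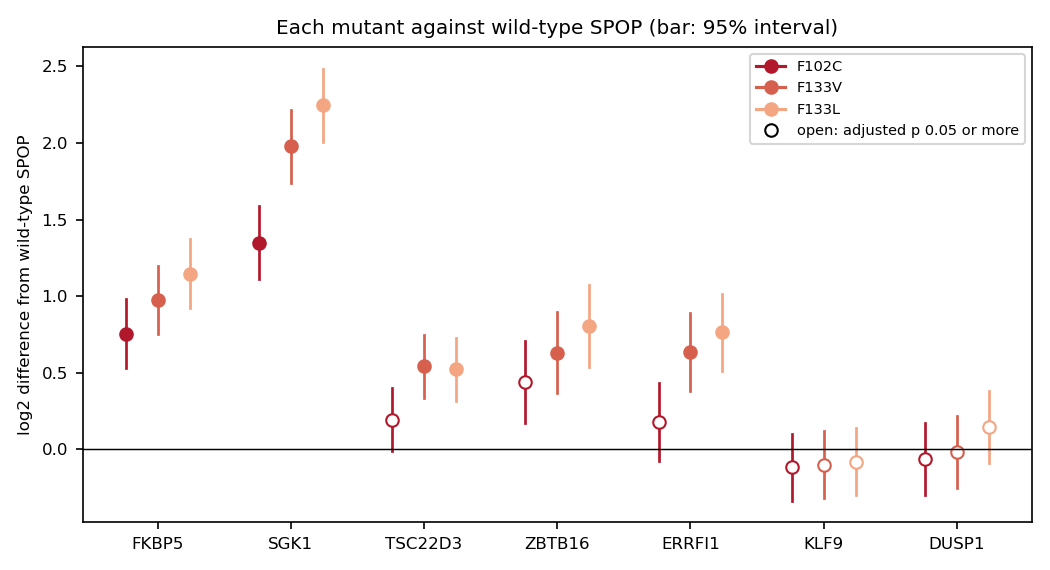
Log2 difference of each mutant from wild-type SPOP (vertical axis, with the 95% interval) for the 7 tested genes, filled points marking an adjusted p under 0.05. SGK1 is at 1.35 in F102C, 1.98 in F133V and 2.25 in F133L, TSC22D3, ZBTB16 and ERRFI1 are open in F102C, and KLF9 and DUSP1 are near 0 in all 3. With equal array medians the filled TSC22D3, ZBTB16 and ERRFI1 points of F133V and F133L lose their calls, as do the FKBP5 points of F102C and F133V. KLF9 (-0.73) and DUSP1 (-0.64) are then called lower in F133V, where that scaling lowers every tested member.

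Genes with several probes allowed a check within the gene. The 3 detected SGK1 probes gave 1.86, 1.80 and 1.76 for the mutants against wild-type SPOP in a fit on all 23133 kept probes, with adjusted p-values of at most 8.2e-06, and they correlated at r of 0.984 to 0.991 over the 12 arrays. The fourth, ILMN_1853711, stayed at 4.49 to 4.82 and was never detected. The second detected TSC22D3 probe, ILMN_2376403, differed by 0.34 ± 0.17 (SE; adjusted p = 0.254), and it read 6.92 on the first and 6.06 on the second F102C array. The 3 other TSC22D3 probes read 4.30 to 5.09 and were never detected.

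The ZBTB16 probes agreed less. In the mutants against wild-type SPOP ILMN_2402817 differed by 0.57 ± 0.15 (SE; adjusted p = 0.0444), and ILMN_1750496 by 0.24 ± 0.15 (adjusted p = 0.377). Against control vector ILMN_2402817 rose by 0.63 ± 0.15 (adjusted p = 0.0265), while ILMN_1750496 differed by -0.0047 ± 0.15 (adjusted p = 0.991). In wild-type SPOP against control vector ILMN_2402817 differed by 0.07, opposite in sign to the -0.31 of the probe that stood for the gene, and neither passed. Pairs of ZBTB16 probes correlated at r of 0.24 to 0.66 over the 12 arrays. Which transcripts the probes of a gene match was not analysed here.

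**Figure D4:**
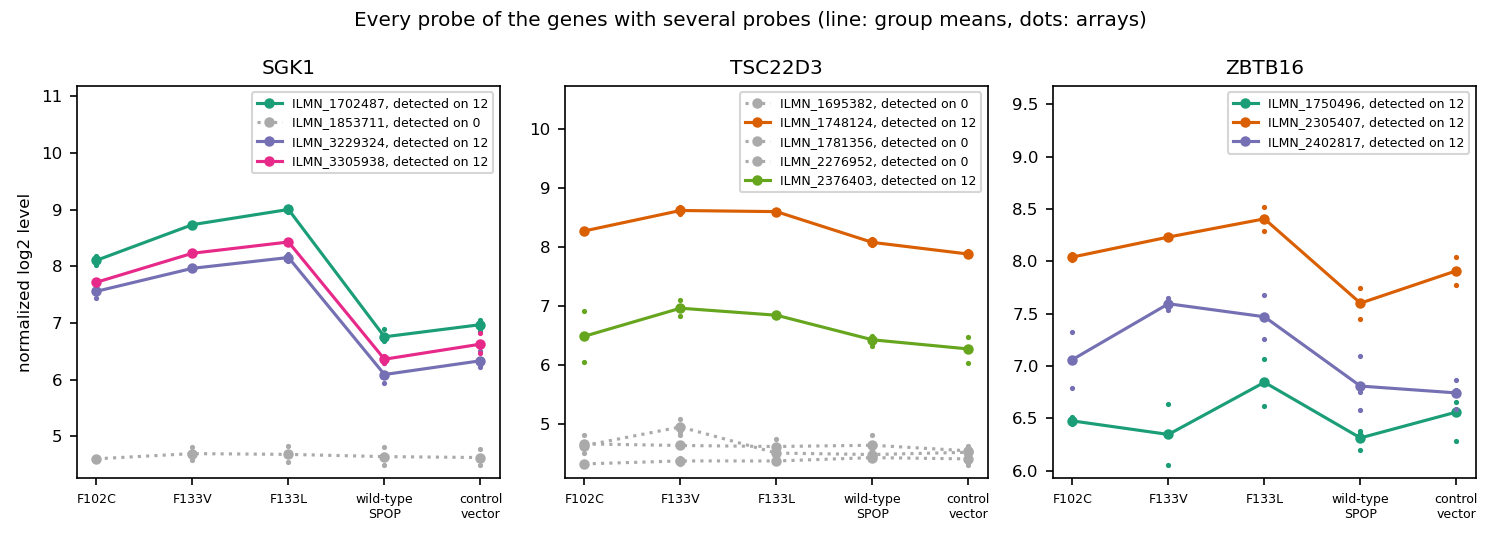
Normalized log2 level of every SGK1, TSC22D3 and ZBTB16 probe (vertical axis) by construct, lines joining group means and small dots marking arrays; dotted grey lines are probes detected on 0 of 12 arrays. The 3 detected SGK1 probes run in parallel with correlations of 0.984 to 0.991, and the ZBTB16 probes do not, with correlations of 0.24 to 0.66.

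Over the 12 arrays FKBP5, SGK1, TSC22D3, ZBTB16 and ERRFI1 had similar patterns, given here as a description since the points share construct groups and array depth. TSC22D3 and ERRFI1 correlated at Pearson r of 0.97, FKBP5 and ZBTB16 at 0.92, SGK1 and TSC22D3 at 0.92, and FKBP5 and SGK1 at 0.87. FKBP5 and TSC22D3 were less alike (0.69), KLF9 lay between -0.33 and 0.40 with every other member, and DUSP1 was at 0.15 with FKBP5 and at most 0.55 with any member. The genes outside the group most like FKBP5 over the same arrays were EAF2 (0.976), KCNMA1 (0.971), ABCC4 (0.961), SLC26A3 (0.953) and ASCL2 (0.952). EAF2, a partner of the elongation factor ELL, differed by 1.16 log2 between the mutants and wild-type SPOP and by -0.61 between wild-type SPOP and control vector, and KCNMA1, a potassium channel, by 0.81 and -0.53. Those most like SGK1 were KRT19 (0.987), TRPM8 (0.979), NDRG1 (0.978), ZMIZ1 (0.978) and PGC (0.975). KRT19, a keratin of simple epithelia, differed by 1.46 and -0.07, and TRPM8, a cold-sensing channel, by 1.34 and -0.19 in the same comparisons.

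Of the receptors that act on these genes, 3 are given here. NR3C1, which encodes the glucocorticoid receptor, had 3 probes, of which 1 was detected on 1 array and the others on 0, with log2 levels of 4.34 to 5.25. The PGR probe for the progesterone receptor was detected on 0 arrays. NR3C2, the mineralocorticoid receptor, was detected on all 12 arrays (ILMN_2210934), and it fell with wild-type SPOP against control vector by 0.77 ± 0.15 (SE; adjusted p = 0.00986). It differed by -0.04 between the mutants and wild-type SPOP (adjusted p = 0.871), so the mutants also lay below control vector, at -0.81 ± 0.13 (adjusted p = 0.00194).

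On the list of steroid receptors, their chaperones and steroid access, 19 of 28 genes were tested. Against wild-type SPOP the mutants had 1 that rose, the cyclophilin co-chaperone PPID (1.04 ± 0.19; adjusted p = 0.00566), and 0 that fell, with a median of -0.03 against -0.01 over all genes. Of all genes 5.57% rose and 6.18% fell. With wild-type SPOP against control vector 2 fell, NR3C2 and the HSP90 co-chaperone CHORDC1 (-0.61 ± 0.14; adjusted p = 0.0202), where 3.07% of all genes fell. HSD11B2, which inactivates cortisol, was detected on all 12 arrays, while the 3 probes of HSD11B1 were detected on 0. HSD11B2 rose in the mutants against control vector by 0.67 ± 0.12 (adjusted p = 0.00389). It differed by 0.20 between the mutants and wild-type SPOP (adjusted p = 0.314). Between wild-type SPOP and control vector it differed by 0.48 (adjusted p = 0.0634).

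Of 30 other glucocorticoid-induced genes 23 were tested. In the mutants against wild-type SPOP 7 rose and 2 fell, with a median of 0.17, where 5.57% of all genes rose and 6.18% fell. RGS2, which restrains G protein signalling, rose by 0.89 ± 0.07 (SE; adjusted p = 3.2e-05), and GLUL, glutamine synthetase, by 0.81 ± 0.11 (0.000934). NFKBIA, the NF-kB inhibitor, rose by 0.46 ± 0.10 (adjusted p = 0.0113) and SCNN1A, a subunit of the epithelial sodium channel, by 0.38 ± 0.08 (0.00862). MT1X, a metallothionein, and MAOA, monoamine oxidase A, rose by 0.38 ± 0.09 and 0.31 ± 0.07. IRS2 was counted among the 7, but it was detected on no array of either side and has no fold. TXNIP, which binds thioredoxin, fell by 0.62 ± 0.10 (adjusted p = 0.00222), and DDIT4, an inhibitor of mTORC1, by 0.57 ± 0.09 (0.00204).

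In wild-type SPOP against control vector 3 genes of that list rose and 5 fell, with a median of -0.09. Of all genes 3.08% rose and 3.07% fell. RGS2 fell by 0.52 ± 0.09 (SE; adjusted p = 0.00399), GLUL by 0.49 ± 0.13 (0.0388) and STOM, a membrane scaffold, by 0.75 ± 0.13 (0.00691). FOXO1 and IRS2, detected on all 3 control arrays and on 0 wild-type arrays, were at least 1.77-fold (adjusted p = 0.000734) and 1.33-fold (0.000368) lower. For these bounds each undetected array was given its lowest detected level or its own level, whichever was higher. TXNIP, DDIT4 and SCNN1A rose by 0.79 ± 0.11, 0.62 ± 0.10 and 0.51 ± 0.09. The list held genes that moved both ways.

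NDRG1, whose protein SGK1 phosphorylates, rose with SGK1 in the mutants against wild-type SPOP, by 1.19 ± 0.08 (SE; adjusted p = 1.0e-05). Of 13 tested genes among 18 SGK1 partners and substrates, NDRG1 and SCNN1A rose and 0 fell, with a median of 0.07. In that comparison 5.57% of all genes rose and 6.18% fell. The kinase PDPK1 and the mTORC2 subunit MAPKAP1, which act upstream of SGK1, differed by -0.21 (adjusted p = 0.237) and -0.19 (0.162). GSK3B and NEDD4L of the same list differed the other way, by 0.25 (adjusted p = 0.0862) and 0.24 (0.138), also without passing.

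Of 22 genes of EGFR and MAP kinase feedback, the pathways that ERRFI1 and DUSP1 restrain, 18 were tested. In the mutants against wild-type SPOP 3 rose and 3 fell (median 0.12), where 5.57% of all genes rose and 6.18% fell. The MAP kinase phosphatase DUSP4 rose by 0.96 ± 0.10 (SE; adjusted p = 0.000177), the receptor EGFR by 0.45 ± 0.11 (0.0223) and the inhibitor SPRY2 by 0.35 ± 0.10 (0.0386). SOCS4, MAFF and the receptor ERBB2 fell by 0.47 ± 0.10, 0.45 ± 0.13 and 0.34 ± 0.08. In wild-type SPOP against control vector SPRY1, SPRY2 and PHLDA1 fell by 0.57 ± 0.10, 0.53 ± 0.11 and 0.51 ± 0.11, and ERBB2 rose by 0.46 ± 0.10. There 3.08% of all genes rose and 3.07% fell. Of 20 immediate early genes, which share serum induction with DUSP1, 13 were tested and 0 passed in the mutants against wild-type SPOP with limma (EGR1 at -0.49, adjusted p = 0.063; FOS detected on 0 arrays). KLF6 and MYC fell with wild-type SPOP against control vector, by 0.67 ± 0.09 and 0.43 ± 0.10.

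Of 20 clock genes related to PER1, 16 were tested. BHLHE40, a clock repressor, rose in the mutants against wild-type SPOP by 0.41 ± 0.08 (SE; adjusted p = 0.00953). BMAL1, the partner of CLOCK, fell by 0.48 ± 0.09 in the mutants against wild-type SPOP (adjusted p = 0.00609) and rose by 0.55 ± 0.10 in wild-type SPOP against control vector (0.00953). BMAL1 was detected on 2 mutant, 3 wild-type and 2 control arrays. Its mean was 5.54 in F102C and 5.56 with wild-type SPOP, against 4.87 in F133V and 4.82 in F133L. The F133V and F133L means lay below the lowest detected levels of their arrays, 5.01 to 5.12. The pooled fall was therefore not seen in F102C, and its size is not a measured fold. Among 26 tested paralogs of the members, of 30 listed, DUSP4 rose and ZBTB20 (-0.47 ± 0.10; adjusted p = 0.0129) and FKBP1A (-0.41 ± 0.12; 0.042) fell, with a median of 0.03. These are for the mutants against wild-type SPOP, where 5.57% of all genes rose and 6.18% fell. FKBP4, the co-chaperone paralog of FKBP5, differed by 0.13 (adjusted p = 0.286) in the same comparison.

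**Figure D5:**
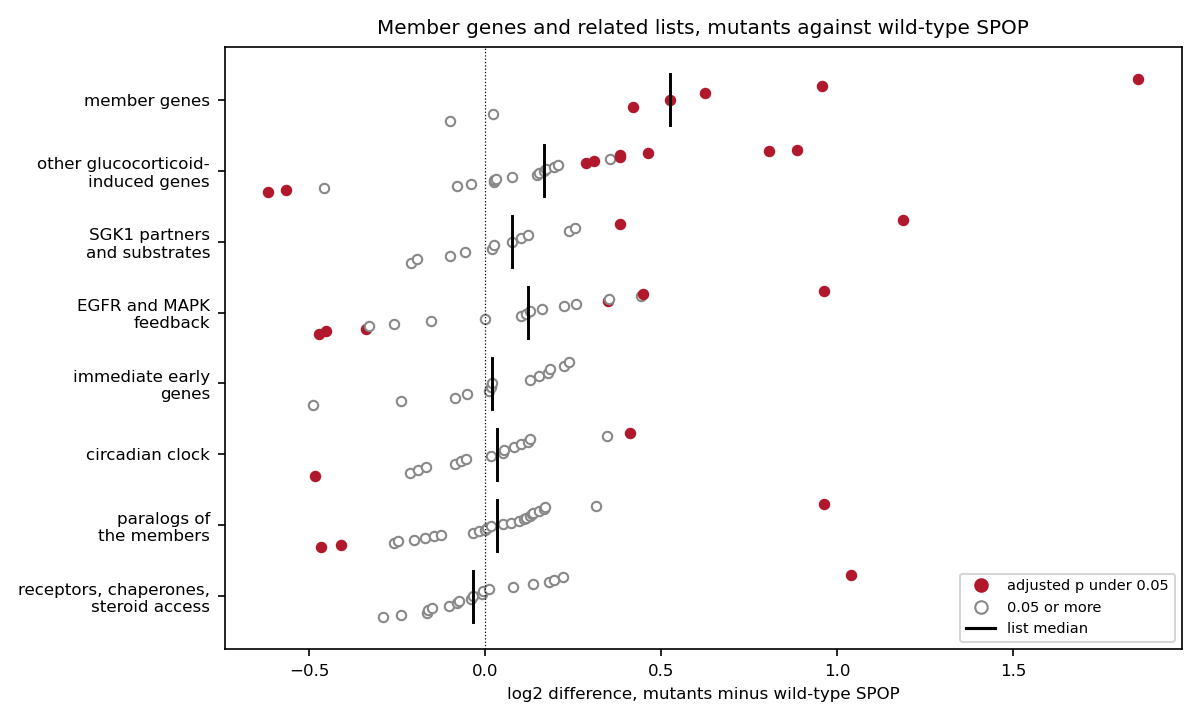
Log2 difference between the mutants and wild-type SPOP (horizontal axis) of each tested gene of the 8-gene group and of 7 related lists, 1 point per gene, filled where the adjusted p is under 0.05, with a bar at each list's median. The median is 0.53 for the 7 tested members, 0.17 for the other glucocorticoid-induced genes, and between -0.03 and 0.12 for the rest; the filled IRS2 point lies below detection in both groups. With equal array medians these become 0.17, -0.04 and -0.32 to -0.16, while the median over all genes moves from -0.01 to within the last range.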

How the data were processed

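RNA from 12 samples of LNCaP-Abl cells was measured on Illumina bead arrays. The file headers show that the authors deposited average bead intensities, not normalized, with a detection p-value for each of 47323 probes. Processed values that the authors deposited, taken as log2 from their range, served only as an alternative. They had 1 median (7.53) on every array and followed the log2 intensities (r = 0.991 to 1.000, rounded), but their exact transformation stays unknown. The submitters' processing notes name lumi, without the version or settings in the sources used here.

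The intensities were put through neqc of limma 3.58.1 in R 4.3.3 (background correction with offset 16, quantile normalization, log2). Probes with a detection p-value under 0.05 on at least 2 arrays were kept (23133). Platform annotation named 1 gene for 30113 probes, more than 1 for 8, and 17202 had no symbol. The kept probe with the highest mean stood for each gene. A model with 5 group means over all 12 arrays was fitted with lmFit and eBayes, and the 3 mutants were averaged with equal weight. P-values were adjusted by Benjamini-Hochberg over 12227 genes and called under 0.05. The fit was tested on simulated data. Precision is limited by how few arrays there were. Alternatives changed the background correction, normalization, filter, choice of probe, covariates and spread estimate, or left out 1 array.

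The members, lists and naming rule were chosen with earlier results of these data known. The rule named all 8 members with their probes, NR3C1, NR3C2, PGR and an item not reported here, from each list up to 6 genes of lowest p for the mutants against wild-type SPOP and up to 4 for wild-type SPOP against control vector, and the 5 genes most correlated with FKBP5 and with SGK1. Values are printed for the genes of those lists that passed. Further listed genes were named after their values were seen, among them HSD11B1, HSD11B2, EGR1, FOS, PDPK1, MAPKAP1, GSK3B, NEDD4L, FKBP4 and the marker genes.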

Additional observations from a re-analysis of the deposited data

How the results depend on the processing

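Across 15 processing alternatives and 12 fits that each left out 1 array, the rises of SGK1 and FKBP5 in the mutants against wild-type SPOP, the rise of SGK1 in the mutants against control vector and the fall of FKBP5 in wild-type SPOP against control vector kept their direction and call, though the SGK1 rises were as low as 0.96 and 0.88 with the authors' deposited values. Of 1512 differences of single members under these settings, 1427 kept direction and call. With the same sign, 39 lost and 20 gained a call. The sign changed in 26, some of which also lost or gained a call, and the cause was not tested. Arrays scaled to equal medians made 26 of all these changes of call or sign, more than any other setting. The median over all genes was then -0.26 in the mutants against wild-type SPOP (4617 genes called, 141 higher, against 1437 and 681) and -0.37 in the mutants against control vector (6935 called, 156 higher, against 1494 and 684). Members called were then 3 in the mutants against wild-type SPOP (KLF9 lower), 2 in the mutants against control vector (SGK1 higher, KLF9 lower), 1 in F102C (SGK1), 3 in F133V (SGK1 higher, KLF9 and DUSP1 lower) and 2 in F133L (both higher) against wild-type SPOP, and 1 in the F test. Under that scaling the sign turned for the mutants against control vector for FKBP5 (-0.11), ZBTB16 (-0.16), KLF9 (-0.39) and DUSP1 (-0.31), for DUSP1 in the mutants (-0.34) and in F133L (-0.14) against wild-type SPOP, for ERRFI1 in F102C (-0.0043), for TSC22D3 in F133V (-0.084), for KLF9 (-0.26) and DUSP1 (-0.14) in F133V and F133L against F102C, and for TSC22D3 in F133L against F133V (0.32). With the detected-probe covariate 1 member was called in the mutants against control vector and 1 in F133V, DUSP1 turned to -0.028 in the mutants against wild-type SPOP and KLF9 to -0.060 in F133V and F133L against F102C, and 308 and 107 genes were called in the mutants against wild-type SPOP and against control vector. The authors' values called 2 members in wild-type SPOP against control vector. F133V and F133L against F102C called 2 members with an offset of 50, with no background correction, with the authors' values and with trend and robust, and 1 with detection on all 12 arrays or a detection p under 0.01. The F test called 2 with no background correction and with trend and robust, and 1 with offset 50, the authors' values and both stricter filters. Without 1 array, members called were 3 to 5 in the mutants against control vector (3 without control array 2) and 0 to 1 in the F test (1 without the second F133V array). Over those fits DUSP1 ranged from -0.014 to 0.056 in the mutants, -0.13 to 0.00042 in F102C and -0.11 to 0.080 in F133V against wild-type SPOP, and KLF9 from -0.057 to 0.11 in F133V and F133L against F102C. For F133L against F133V TSC22D3 ranged from -0.079 to 0.041, KLF9 from -0.035 to 0.074 and ERRFI1 from -0.0099 to 0.27. Genes called ranged from 343 to 1375 in wild-type SPOP against control vector over the 15 alternatives. Over these, counts of genes called also moved by over 1.5 times in each mutant against wild-type SPOP (178 to 996 in F102C, 5 to 6796 in F133V, 384 to 1459 in F133L), in F133V and F133L against F102C (0 to 53), in F133L against F133V (0 to 16) and in the F test (0 to 326). Leaving out any 1 wild-type array gave 604 to 776 genes called in the mutants against wild-type SPOP, and leaving out any 1 control array 888 to 965 in the mutants against control vector. Leaving out 1 array gave 407 to 778 genes in wild-type SPOP against control vector, 68 to 383 in F102C, 244 to 1065 in F133V, 280 to 799 in F133L, 0 to 60 in F133L against F133V and 0 to 36 in the F test. The replicate numbers do not pair the arrays: same-numbered arrays of different groups correlated at -0.06 to 0.04 in their deviations from the group means over 21 pairs. With the numbers as a replicate block 5 members were called in the mutants against wild-type SPOP (672 genes) and 4 in the mutants against control vector (920 genes), where ZBTB16 lost its call (0.29, adjusted p = 0.140). No chip was named in the headers, so the chip as a block was not run. Signal over background limits PER1, NR3C1 and PGR, which were not detected on 2 or more arrays.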
